A study of Sesbania grandiflora with 21 samples.

Results

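Among leaf transcripts of Sesbania grandiflora, 150 assembled genes were singled out because their levels differed most between libraries of the same group while their group means stayed within a set limit. They were taken from 97500 genes in all. Levels are CPM, the counts of a gene divided by all counts of its library and multiplied by 1000000, and x is log2(CPM + 1). The rule kept genes with a mean of 10 CPM or more, left out the 100 most abundant genes of the ck libraries, and required the 7 group means of x to span less than 1.5, which left 10107 eligible genes. These were ranked by the variance of x within a group, averaged over the groups, and the 150 highest are the members described here. The values of x therefore chose the members, and their spread is given as a description without a test.

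The tree is a legume grown for its edible leaves and flowers, and legume roots house nitrogen-fixing bacteria. Leaf messenger RNA is in general rich in transcripts for photosynthesis, whereas many transcripts of stress and defence responses are scarce until they are called on. In a de novo assembly a "gene" is a cluster of assembled transcripts, and close copies or alleles can be split into several genes that share an assembly component, the part of the identifier before "_g". The deposited identifiers are paired with no gene names, so no role can be given to a member, 4 members are named, and the others are given by their rank. For the same reason the leaf label could not be checked against marker genes.

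RNA from leaves was sequenced in 21 libraries, 3 in each of 7 groups: ck, which served here as the reference, Y-S and Y-L, DS-S and DS-L, and finally DS+Y-S with DS+Y-L. The title of the series speaks of drought and salt stress in combination, but the labels do not spell out the letters, the age of the plants or the length of a treatment. Nothing in the labels says that libraries of a group came from different plants, so the spread between them may be technical, and in bulk leaf RNA fewer cells of a type and less RNA per cell cannot be told apart. Libraries held 16431940 to 20138058 counts. DS+Y-S replicate 1 stands apart, with counts on 36755 genes against 47279 to 61454 in the other 20, and the rule does not use it, so DS+Y-S enters with 2 libraries.

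The label of greatest variation holds only within the limit on group means. That limit removed 2643 genes, of which 1294 varied more within groups than the member ranked 150 and 269 varied more than the member ranked 1. Without the limit, 0 of the 150 members would have been chosen. The members are thus the genes that varied most between libraries among those whose group means of x spanned less than 1.5. Their own span of group means had a median of 1.30, against 0.73 over the eligible genes.

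**Figure D1:**
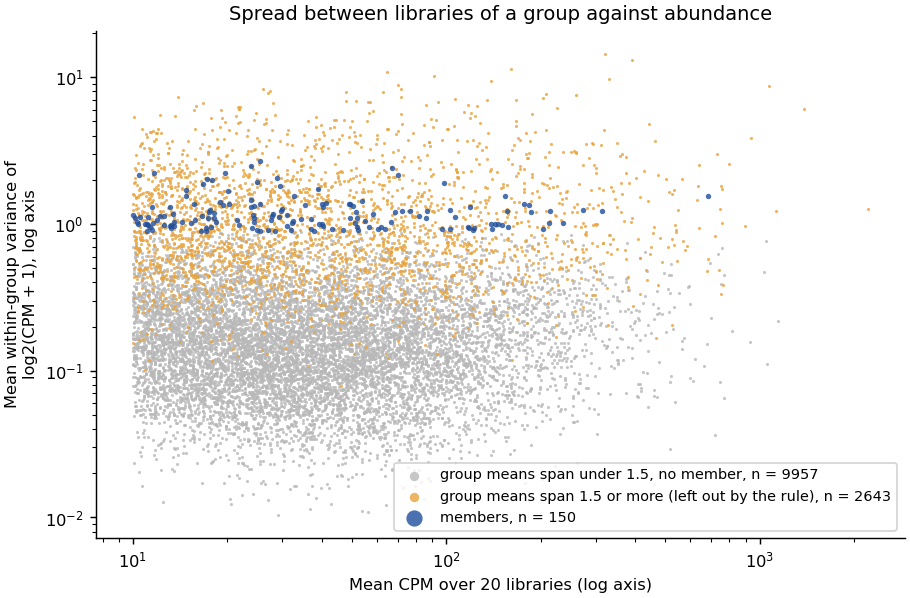
Each point is a gene with a mean of 10 CPM or more outside the 100 most abundant of ck, with mean CPM over 20 libraries on the x axis and the mean within-group variance of log2(CPM + 1) on the y axis, both log axes. The 150 members lie between 0.892 and 2.69, at the top of the genes within the limit on group means. Many of the 2643 genes left out by that limit lie higher.

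The rule bounds abundance, and 12850 of the 97500 genes had a mean of 10 CPM or more. Within the bounds of the rule the members were of ordinary abundance. Their mean level ran from 10.04 to 684 CPM with a median of 29.6 CPM, against a median of 35.2 CPM over the eligible genes. Together they took 0.615% to 1.37% of the counts of a library. Every member had counts in all 20 libraries, as did all 10107 eligible genes, and the lowest single value was 5 counts. In 3 members a library fell below 1 CPM.

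The spread, which chose the members, is given here beside counting error. The mean within-group variance of x ran from 0.892 to 2.69 over the members with a median of 1.10, against a median of 0.15 over the eligible genes. Counting error accounted for a median of 0.441% of a member's variance and at most 1.26%, against a median of 2.27% over the eligible genes, a figure that treats each count as a separate molecule although copies made by PCR are not separate. The member ranked 150 stood at 0.892 and the gene ranked 151 at 0.885, so the boundary of the list follows no gap. Between the lowest and the highest of the 20 libraries the members differed 6.73-fold to 123-fold, with a median of 12.9-fold, against a median of 3.06-fold over the eligible genes.

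TRINITY_DN25234_c0_g1 had the highest variance of all, 2.69. It stood at 41.5, 23.8 and 6.90 CPM in ck replicates 1, 2 and 3, at 24.3, 3.77 and 41.3 CPM in DS-L, and at 22.8, 38.04 and 7.28 CPM in DS-S. In Y-L it stood at 17.8, 38.5 and 34.6 CPM, and in Y-S at 37.6, 45.02 and 7.82 CPM. The combined groups held its extremes, with 56.4, 1.38 and 21.7 CPM in the 3 DS+Y-L libraries and 36.3 and 2.61 CPM in DS+Y-S replicates 2 and 3. The range of every group overlapped that of every other. The gene was lowest in replicate 3 of ck, DS-S, Y-S and DS+Y-S, and in replicate 2 of DS-L and DS+Y-L.

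TRINITY_DN6505_c0_g1, the member ranked 2, ran the other way in many of these libraries. It stood at 13.1, 2.47 and 41.4 CPM in the ck libraries, at 9.42, 16.5 and 5.36 CPM in DS-L, and at 35.1, 5.19 and 28.7 CPM in DS-S. Y-L gave 14.1, 58.1 and 5.18 CPM for this gene, and Y-S gave 2.33, 23.9 and 58.4 CPM. It reached its highest level of 75.4 CPM in DS+Y-L replicate 1, beside 43.2 and 6.56 CPM in replicates 2 and 3, and stood at 7.23 and 25.2 CPM in DS+Y-S replicates 2 and 3. Its largest difference within a group was 25.05-fold, in Y-S, and again no group stood clear of another.

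TRINITY_DN21439_c1_g1 was the most abundant member, with a mean of 684 CPM and rank 19. It stood at 283, 108 and 1788 CPM in the ck libraries, so that ck held both its lowest and its highest library, 16.5-fold apart. Its 3 libraries gave 598, 815 and 368 CPM in DS-L, 965, 293 and 550.5 CPM in DS-S, and 1553, 609.7 and 697 CPM in Y-L. They gave 149, 583 and 728 CPM in Y-S and 377, 933 and 689 CPM in DS+Y-L, and DS+Y-S replicates 2 and 3 stood at 242 and 1354 CPM. Its lowest count in a library was 2060. TRINITY_DN9708_c0_g1, the last member at rank 150, ran from 4.47 CPM in ck replicate 2 to 32.1 CPM in DS+Y-L replicate 2 with a median of 13.04 CPM.

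**Figure D2:**
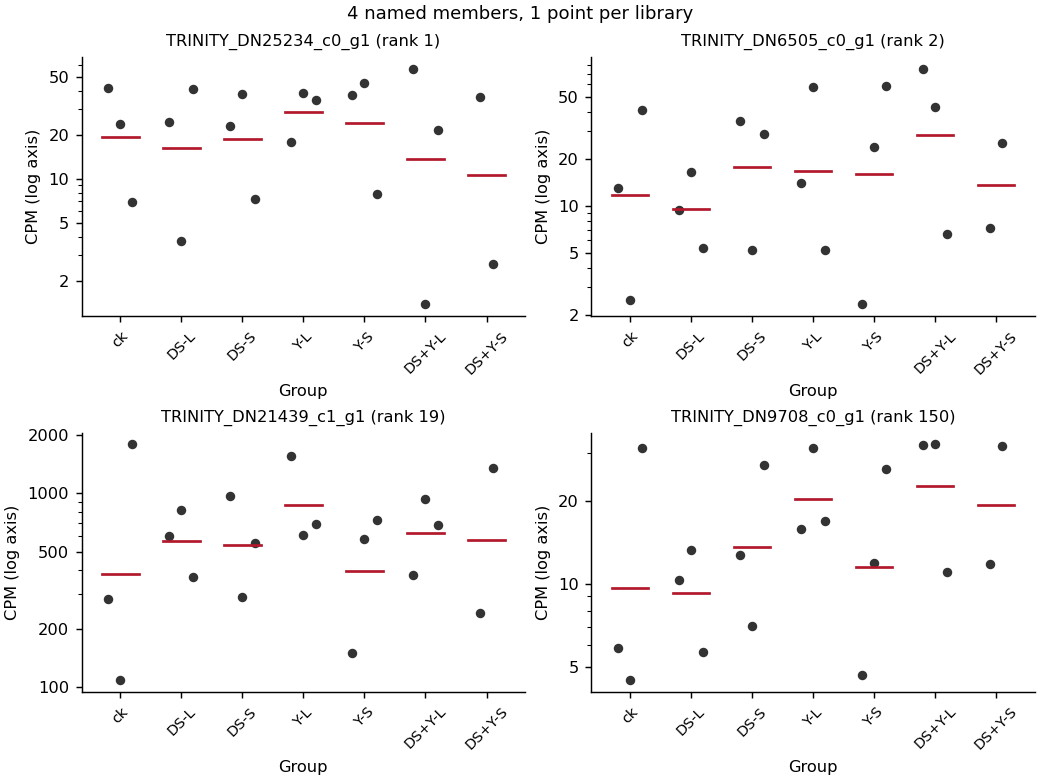
CPM (log axis) of the 4 named members in each of the 20 libraries, by group; each point is a library and the red line is the group mean taken on the log2(CPM + 1) scale. Points of a group lie up to 41.0-fold apart. The group means of each gene span less than 1.5 on the log2(CPM + 1) scale, as the rule requires.

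Other members reached wider differences in single groups. The member ranked 117 ran from 0.265 CPM in DS+Y-L replicate 2 to 18.6 CPM in DS+Y-L replicate 3, 70.3-fold apart and the widest within any group. The member ranked 4 ran from 1.24 to 51.7 CPM within Y-L, a 41.7-fold difference, and from 1.27 to 44.98 CPM within DS-S, 35.4-fold apart. Within ck the widest was the member ranked 42, at 2.45 CPM in replicate 3 and 58.3 CPM in replicate 2, 23.8-fold apart.

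The spread was shared over the groups but not evenly. DS+Y-S, with its 2 libraries, had the widest spread, a median SD of 1.57 over the members against 0.28 over the eligible genes. The median SD of the members was 0.96 in ck, 0.96 in DS+Y-L, 0.84 in Y-S, 0.74 in DS-S, 0.66 in DS-L and 0.66 in Y-L, where the eligible genes had 0.32, 0.37, 0.32, 0.29, 0.30 and 0.32. DS+Y-S was the group of widest spread for 78 members, DS+Y-L for 26, DS-L for 19, ck for 11, Y-L for 8, Y-S for 6 and DS-S for 2. The share of the summed variance from DS+Y-S had a median of 29.5% over the members, against 8.76% over the eligible genes. For 40 members more than 50% of the summed variance came from a single group, and in 29 of these the group was DS+Y-S. A variance from 2 libraries is the least certain of the 7, and the rule gives it the same weight as the others. The order of the groups therefore follows in part from the choice. In genes chosen without the group in question, as described below, the median SD was 1.17 in DS+Y-L and 0.97 in DS+Y-S.

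Differences of 4-fold or more between libraries of a group were counted next. They occurred in 72 of 150 members in ck (48% against 1.44% of eligible genes), 90 in DS+Y-S (60% against 2.15%) and 72 in DS+Y-L (48% against 3.84%). The numbers were 56 in Y-S (37.3% against 1.94%), 46 in DS-L (30.7% against 3.48%), 40 in DS-S (26.7% against 1.02%) and 36 in Y-L (24% against 1.62%). At least 2 groups showed such a difference in 133 members, and 0 members showed it in all 7. A difference of 2-fold or more within every group was found in 21 members, 14% of them, and in 35 of the eligible genes (0.346%), members included.

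Because the spread itself chose the members, it was also measured in libraries that had no part in the choice. The rule was applied to 6 groups at a time, and the SD of the 150 genes so chosen was taken in the group left out. In ck, the genes chosen from the other groups had a median SD of 0.85 against 0.33 over the genes eligible in that choice. The medians were 0.55 against 0.30 in DS-L, 0.66 against 0.29 in DS-S, 0.61 against 0.33 in Y-L and 0.67 against 0.32 in Y-S. They were 1.17 against 0.39 in DS+Y-L and 0.97 against 0.28 in DS+Y-S. In each of the 7 groups, between 74% and 91.3% of the chosen genes had a larger SD than the median eligible gene. Genes picked for their spread in 6 groups thus also had a wide spread in the remaining group, by a ratio of medians from 1.84 in DS-L to 3.41 in DS+Y-S. These genes are not the members themselves but share 61 to 132 genes with them.

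**Figure D3:**
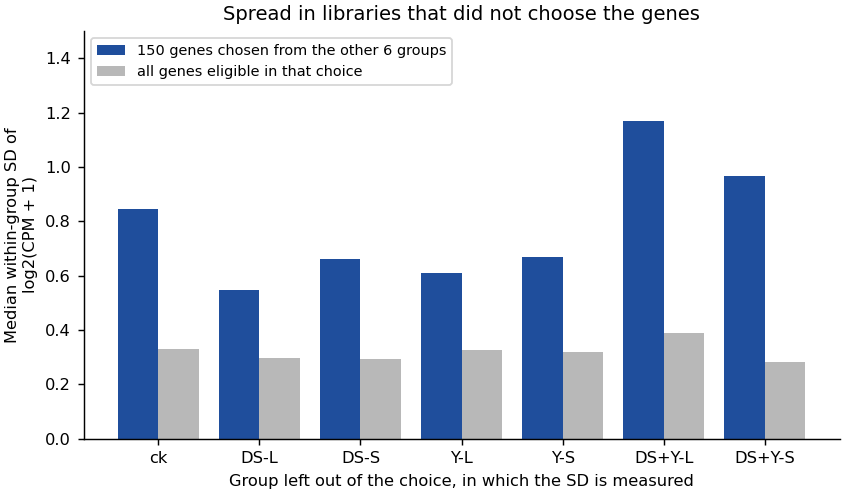
Bars give the median within-group SD of log2(CPM + 1) in each group, for the 150 genes chosen by the rule from the other 6 groups (blue) and for all genes eligible in that choice (grey). The blue bar is the higher of the pair in all 7 groups, from 0.55 in DS-L to 1.17 in DS+Y-L.

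The members did not vary each on its own. Deviations of x from the group means were grouped by their correlation over the 20 libraries, joining genes at an average r of 0.5. This gave 21 groups of genes, of which 2 held 92 of the 150 members. The larger, called set A, had 60 members with a median pairwise r of 0.68, and the second, set B, had 32 members, also with a median r of 0.68. Deviations of A genes against B genes had a median r of -0.63, from -0.96 to 0.19. Single pairs went down to an r of -0.19 within set A and 0.06 within set B. The points behind each r are the same 20 libraries, and 13 degrees of freedom remain after the group means are taken out. The members were also chosen for large deviations, so these values are a description. The first axis of variation of the members' deviations held 44.3% of their variance, with 85 members on its positive side and 65 on its negative side, and the next held 15.6%. Over all eligible genes the first axis held 30.2% and the next 24.4%, and the members' first axis followed that of the eligible genes at r = 0.86 over the 20 libraries, so shared variation was not limited to the members. Set A followed this axis at r = 0.99 and set B at r = -0.95. TRINITY_DN25234_c0_g1 belongs to set B, and the other 3 named members belong to set A.

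**Figure D4:**
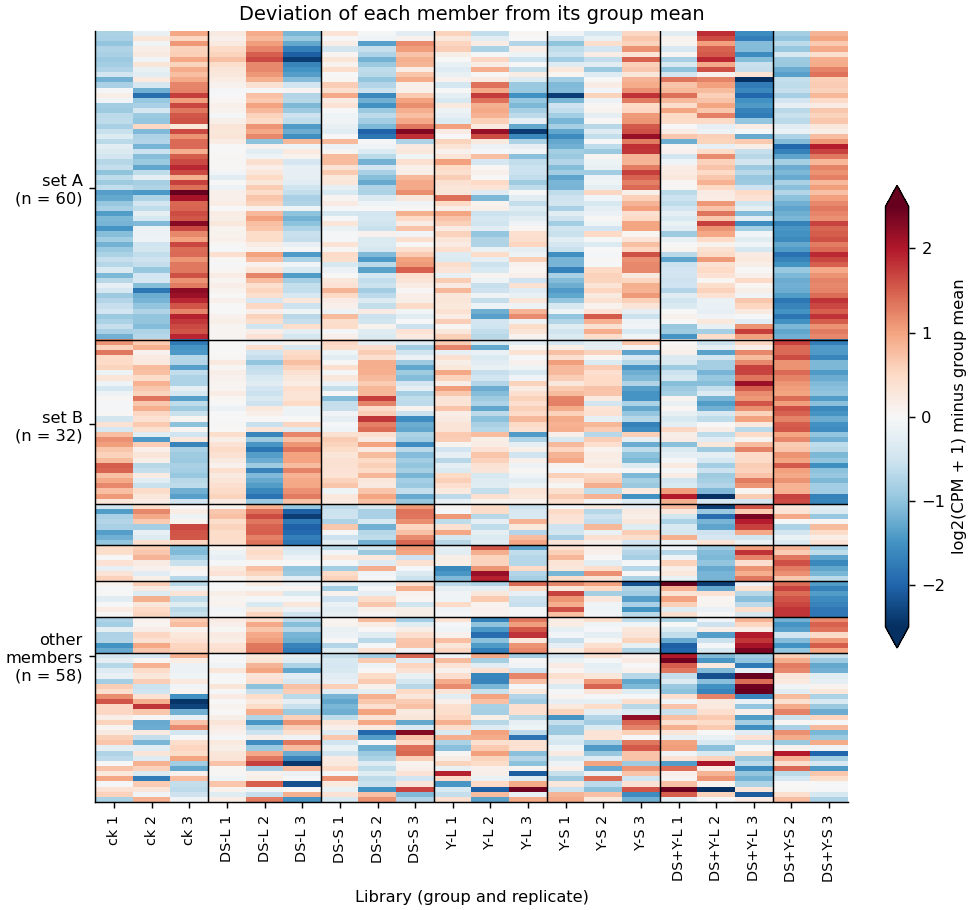
Deviation of log2(CPM + 1) from the group mean for each of the 150 members (rows) in 20 libraries (columns, group and replicate); horizontal lines close the 6 sets of 5 or more members and vertical lines separate groups. The 60 genes of set A are mostly red where the 32 genes of set B are mostly blue, as in ck, Y-S and DS+Y-S replicate 3. In Y-S replicate 3, 54 genes of set A and 5 of set B lie above the group mean.

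In each group but Y-L, set A was high and set B low in 1 library and the reverse in another. In ck, the median member of set A stood at 13.3, 14.2 and 73.5 CPM in replicates 1, 2 and 3, and that of set B at 42.2, 48.7 and 18.1 CPM. All 60 genes of set A lay above their ck mean in replicate 3, while 3 of the 32 genes of set B did. In DS+Y-S, set A stood at 16.8 CPM in replicate 2 and 89.6 CPM in replicate 3, and set B at 45.5 and 6.34 CPM. There all 60 A genes were higher in replicate 3 and all 32 B genes were higher in replicate 2.

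The other groups showed the same opposition to a lesser degree. Set A stood at 18.1, 29.8 and 52.97 CPM in Y-S replicates 1, 2 and 3, and set B at 51.3, 43.9 and 17.3 CPM. DS-S gave 27.8, 17.8 and 38.6 CPM for set A and 40.2, 49.7 and 22.2 CPM for set B. The high library of set A was thus replicate 3 in ck and in the 3 groups of suffix S. In DS-L it was replicate 2, with 29.9, 43.5 and 17.9 CPM for set A and 46.8, 27.8 and 57.6 CPM for set B. In DS+Y-L it was replicate 2 as well, with 34.3, 60.9 and 28.8 CPM for set A and 19.1, 14.3 and 38.6 CPM for set B. Y-L showed little of it, with set A at 37.3, 32.3 and 32.4 CPM and set B at 34.1, 20.98 and 31.2 CPM.

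The median x of set A minus that of set B gives each library's position. It was above 0 in 10 of the 20 libraries and below 0 in 10, from -1.71 in ck replicate 2 to 3.63 in DS+Y-S replicate 3. It changed sign between libraries of the same group in 6 of the 7 groups. Group means were -0.45 ± 2.09 in ck, -0.55 ± 1.13 in DS-L, -0.39 ± 1.11 in DS-S, -0.14 ± 1.54 in Y-S and 0.81 ± 1.21 in DS+Y-L (SD, n = 3 each). They were 0.26 ± 0.30 in Y-L (SD, n = 3) and 1.12 ± 3.54 in DS+Y-S (SD, n = 2). In all 7 groups the SD exceeded the size of the mean, and no test was run because the sets were formed from these values.

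**Figure D5:**
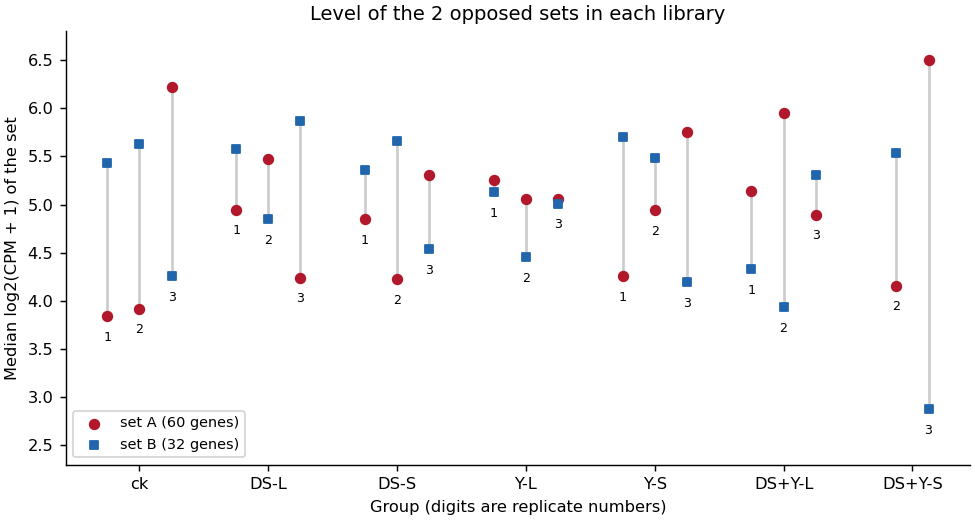
Median log2(CPM + 1) of the 60 genes of set A (red circles) and the 32 genes of set B (blue squares) in each of 20 libraries, joined by a grey line and marked with the replicate number. Set A lies above set B in 10 libraries and below it in 10, and within 6 of the 7 groups the order changes between libraries.

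Depth and the number of detected genes were set beside these values. Within ck, replicate 3 had 18403292 counts on 61117 genes, and replicates 1 and 2 had 18450395 counts on 54120 genes and 19002636 counts on 60733 genes. In DS+Y-S, replicate 3 had 17994704 counts on 53196 genes and replicate 2 had 17421337 counts on 57353 genes. The 100 most abundant genes of ck, which the rule leaves out, took 7.53% of all counts in DS+Y-L replicate 2 and up to 24.7% in DS-L replicate 3. In 5 of the 7 groups the library with the highest difference of A over B was the library where these genes took the smallest share, the exceptions being ck and Y-L. CPM are shares of a library, and the part of this in the members' variation was not tested. With CPM scaled by TMM, a scaling based on most genes rather than on the total, the 2 largest sets held 89 members against 92. TMM moves all genes of a library by the same factor. The difference of A over B therefore stays almost unchanged, and this count is no test of that part.

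DS+Y-S replicate 1 was used neither for the choice nor for forming the sets, and it had the order of replicate 2. Set A stood at 18.8 CPM there and set B at 61.8 CPM, a difference in median x of -1.66. Of the 60 A genes 24 lay below both other DS+Y-S libraries and 1 above both, and of the 32 B genes 20 lay above both and 0 below. Over the eligible genes 3291 lay below both and 4465 above both. In this library 2 members had 0 counts, 1.33% of members against 0.109% of eligible genes, and its low number of detected genes limits what single values there show. Over all members 80 of 150 (53.3%) lay between the other 2 libraries, against 23.3% of eligible genes. The wide gap between those 2 libraries had a part in choosing the members and in forming the sets. The order in replicate 1 and the counts below or above both libraries can follow in part from that gap. The gap was narrower over the eligible genes.

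Since DS+Y-S had the widest spread over the members, which its variance helped to choose, the sets were also formed without it. Regrouped on the remaining 18 libraries, the 2 largest sets held 62 members in place of 92.

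Smaller sets followed the members' first axis less closely than sets A and B. The set of 8 members below had an r of 0.27 with it. The sets of 7, in the order given below, had 0.33, -0.64 and -0.70, where the negative values lie on the side of set B. A set of 8 members was highest in DS-L replicate 2, with a median deviation of 1.37 on the log2 scale, and lowest in DS-L replicate 3, at -1.87. A set of 7 members was highest in DS+Y-L replicate 3 at 1.80 and lowest in Y-L replicate 2 at -1.44, and another 7 were high in DS+Y-S replicate 2, DS+Y-L replicate 3 and Y-L replicate 2, at 1.13, 1.12 and 1.11. The last set of 7 divided DS+Y-S replicates 2 and 3, at 1.67 and -1.67, and Y-S replicates 1 and 3, at 1.10 and -0.86. With 2 libraries in DS+Y-S, their deviations from the group mean are equal and opposite by construction. The remaining 29 members fell into sets of fewer than 5, and 8 of them joined no other member.

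Features that the rule did not use were compared next. The effective length, the length implied by a gene's counts, its FPKM and the library total, had a median of 1269 bases over the members, from 837 bases at the lower quartile to 1748 bases at the upper. Over the eligible genes the median was 1376 bases and the quartiles 896 and 2018 bases. Sets A and B had medians of 1269 and 1289 bases and mean levels of 37.4 and 33.9 CPM at the median member.

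Members shared an assembly component with other genes about as often as eligible genes did, 44 of 150 (29.3%) against 30.1%. When the counts of all genes of a component were summed, the variance fell below 50% of the member's own in 10 of these 44 (22.7%), against 11.1% of the eligible genes with such a component. For 24 of the 44 the rest of the component was below 10 CPM, which leaves the sum little room to differ from the member. Of the other 20, 10 (50%) fell below 50%, against 24.5% of the eligible genes with 10 CPM or more in the rest. The member's own variance is the value the rule selected on, and adding a steadier rest lowers a large variance by a larger share. The higher shares of members therefore follow in part from the choice, and no test was run. The strongest case was the member ranked 20, at 14.8 CPM on average, whose variance was 1.54 alone and 0.07 after adding the other 2 genes of its component, which stood at 88.9 CPM together. Within DS-L this member stood at 24.8, 50.9 and 1.97 CPM in replicates 1, 2 and 3, and the rest of the component at 88.8, 96.5 and 73.9 CPM. In 0 of the 20 members with 10 CPM or more in the rest did the deviations of that rest run against the member's at an r below -0.5, where 5.26% of the eligible genes with such a component did. In 7 of the 20 (35%) member and rest moved together at an r above 0.5, against 34.02%.

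Group differences of the members were read from edgeR's quasi-likelihood test on all 41105 genes that passed its filter on low counts, with Benjamini-Hochberg adjustment and calls at an adjusted p under 0.05. All 150 members passed that filter. The rule limits the members' group means and selects for spread, so the counts are descriptions. Over the 7 groups edgeR called 0 members, where 0.197% of all genes were called, and the smallest adjusted p of a member was 0.197. Without the filter on low counts it called 76 members, where 8.48% of a larger set of genes were called. At an unadjusted p under 0.05, 7 members passed, against 14.3% of all genes, and DESeq2 called 1 member at an adjusted p under 0.05, against 8.05% of all genes.

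Against ck, edgeR called 0 members in each of the 6 treated groups. The share of all genes called was 0% in Y-S, Y-L, DS-S and DS-L, 0.109% in DS+Y-L and 0.00243% in DS+Y-S. At an unadjusted p under 0.05 in edgeR, 3 members passed in DS-L (11% of all genes), 2 in DS-S (4.36%), 3 in Y-L (12.2%) and 2 in Y-S (4.41%). The same threshold passed 13 members in DS+Y-L (20.7% of all genes) and 8 in DS+Y-S (9.05%). DESeq2 called 1 member in DS+Y-L against ck, where it called 8.66% of all genes, and 0 in the other 5 contrasts, where it called 1.89% in DS-L, 1.35% in DS+Y-S, 0.993% in Y-L, 0.258% in DS-S and 0.212% in Y-S. All 6 contrasts share the ck libraries.

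The members' fold changes against ck were small at the median and wide at the ends. The median log2 fold change was 0.39 in DS+Y-S, 0.23 in DS+Y-L, 0.03 in Y-S, 0.09 in Y-L, -0.08 in DS-S and 0.00 in DS-L, where all genes had medians between -0.06 and -0.01. In DS+Y-S 102 members had a positive value and 48 a negative one, and in DS-L the numbers were 75 and 75. The matching numbers over all genes were not counted. The DS+Y-S values rest on 2 libraries, and all 60 genes of set A were the higher in replicate 3. The part of that library in the 102 positive values was not tested. Single members ran from -2.98 in DS-L to 2.72 in DS+Y-L, with a median standard error of 0.75 to 0.83 on the log2 scale. The smallest adjusted p of any member in edgeR was 0.101, in DS+Y-L. This value follows in part from a choice of genes with wide spread and a limited span of group means.

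Leaving out single libraries changed some of these counts. The rule chose genes with wide gaps between libraries of a group. Leaving out an extreme library can turn such a gap into a group difference. A share of members above that of all genes therefore follows in part from the choice. Without DS+Y-S replicate 2, which leaves that group with 1 library assumed to vary like the others, 53 members passed an unadjusted p under 0.05 in DS+Y-S against ck (35.3% of members, against 11.8% of all genes). Over the 7 groups 27 then passed (18% against 15.98%), and 1 was called after adjustment, where 0.737% of all genes were. All 60 genes of set A were high in ck replicate 3. Without that library, 43 members passed an unadjusted p under 0.05 in DS+Y-S against ck (28.7% of members, against 11.7% of all genes). In DS+Y-L 36 members passed (24% against 21.4%). After adjustment 0 members were called in each, where 0.00245% of all genes were called in DS+Y-S and 0% in DS+Y-L. Leaving out DS+Y-L replicate 3 gave 7 called members in DS+Y-L against ck, where 7.75% of all genes were then called.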

How the data were processed

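Poly(A) RNA of leaves was profiled in 21 libraries, grouped by their titles. The authors deposited whole-number counts per assembled gene and FPKM values, per the file headers. The assembler, aligner and counting program were not given in the sources used here. FPKM values served only to derive lengths, taken from libraries with 20 or more counts.

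CPM were computed from column totals over all 97500 genes. The members and lists were chosen with earlier results of these data known. Named genes are the 2 members of highest variance, the most abundant and the last. Group differences in counts came from edgeR 4.0.16 under R 4.3.3 (filterByExpr, TMM, quasi-likelihood fit, 7 groups in 1 fit) on the 20 libraries of the rule, with DESeq2 1.42.0 as an alternative. Other steps used Python with numpy 2.4.6, pandas 2.3.3 and scipy 1.17.1. The steps were tested on simulated data. Alternatives were pseudocounts, scaling, filters, a replicate block and leaving out libraries or groups.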

Additional observations from a re-analysis of the deposited data

How the results depend on the processing

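Membership depends on the settings. Of the 150 members, 85 stayed with a pseudocount of 5, 71 with a minimum of 1 CPM, 73 with 30 CPM, 87 with all 21 libraries, 88 with the median over groups and 0 without the limit on group means. It was 76, 61 and 93 without ck, DS+Y-L and DS+Y-S, and the remaining 7 alternatives on libraries, scaling or groups kept 106 to 132, 115 of them under the replicate block. Leaving out single libraries kept 41 to 133, with 41 when DS+Y-S replicate 2 was left out, 76 for ck replicate 3 and also for DS+Y-S replicate 3. It kept 98, 80 and 81 when DS+Y-L replicates 1, 2 and 3 were dropped in turn.

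The first axis held 39.8% of the members' variance without DS+Y-S and 39.8% to 48.8% without single libraries, and 45.4% under the replicate block. The median r between the 2 largest sets was -0.66 under the replicate block and -0.66 without DS+Y-S, and -0.68 to -0.61 without single libraries. These sets held 62 to 95 members when single libraries were left out. The alternatives for sets and the share from components were chosen after the data were seen.

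Without a low-count filter edgeR called 76 of 150 members over the 7 groups (8.48% of all genes). Against ck it called 32 in DS+Y-L (5.65%), 17 in DS-L (2.47%), 16 in DS+Y-S (2.27%), 8 in Y-L (2.06%), 6 in DS-S (1.19%) and 5 in Y-S (0.97%). Members were called more often than all genes there, and the cause was not tested. All genes then numbered 92756, against 41105 with the filter, which every member passed, so these shares compare unlike genes. DESeq2 called 1 over the groups (8.05% of all genes) and 1 in DS+Y-L against ck (8.66%). Leaving out single libraries gave 0 to 1 over the groups, 1 without DS+Y-S replicate 2, and 0 to 7 in DS+Y-L against ck, 7 without DS+Y-L replicate 3. The replicate block called 0 members in all 7 comparisons, where it called 0.00243% of all genes in DS+Y-S against ck and 0% in the others. Whether the replicate numbers pair the libraries was not tested. Over the eligible genes, 22 of 57 same-numbered pairs had an r over 0.1, against 43 of 114 compared pairs of different number. Over the members, 17 of 57 and 47 of 114 did. In both sets of genes, 6 of 20 libraries correlated best with their own number.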

Other observations

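Genes outside the list followed the members' first axis too. Of the 100 most abundant genes of ck, 53 had deviations that ran with set B at an r of -0.7 or below with the axis and 4 ran with set A at 0.7 or above, over the same 20 libraries. Among the members 28 and 52 did so, and 12.1% of the other eligible genes passed an r of 0.7 in either direction. The 53 abundant genes had a median deviation of -0.66 in ck replicate 3, -1.12 in Y-S replicate 3 and -1.01 in DS-L replicate 2 on the log2 scale, and of 0.88 in DS+Y-L replicate 3. With CPM scaled by TMM, 47 of the 100 passed an r of 0.7 in either direction, against 57 without.

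Of the 2643 genes left out for group means spanning 1.5 or more, 384 ran with set A and 547 with set B by the same measure, 35.2% in all. Their median within-group SD, as the root of the mean variance, was 0.94 against 1.05 for the members.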
